A study of Rattus norvegicus with 11 samples.

Results

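The uninjured thoracic spinal cord of the adult rat was described from the 3 sham control libraries, chosen by their label, of the 11 libraries analysed here from a study of spinal cord injury (SCI). Control animals were female Sprague-Dawley rats, labelled 12 to 14 weeks old, that received a dorsal laminectomy, the opening of the vertebral arch, with no contusion of the cord. They were perfused with phosphate-buffered saline and their tissue was taken 6 months after surgery, from the level that corresponds to the injury epicentre of the other groups. Each library was made from cord segments of 0.5 mm pooled from 3 rats, so differences between single animals were not measured, and no library comes from a rat without surgery. Poly-A RNA was sequenced, and the expression level of each gene was given as a raw count and as FPKM. FPKM is a count scaled to transcript length and to the depth of the library, by which levels of different genes are compared. This comparison is limited for very short transcripts, as described below. Where 3 values are given together below, they are control replicates 1, 2 and 3 in that order, and a value after ± is the SD over the libraries (n = 3).

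The spinal cord joins a core of grey matter, which holds neuron cell bodies and synapses, to a surround of white matter, which holds ascending and descending axons wrapped in myelin by oligodendrocytes. Astrocytes buffer ions and transmitters and contact the vessels, microglia are the resident macrophages, and meninges, spinal roots and vessels adhere to a dissected segment. Neurons of the dorsal horn receive touch, temperature and pain signals, and those of the ventral horn include the motor neurons. In bulk tissue, fewer cells of a type and less RNA per cell cannot be told apart, so marker lists are read as amounts of RNA and not as numbers of cells.

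The libraries held 11663845, 10057646 and 19241259 counts over 30443 genes, and 3 counts, taken here as the floor, correspond to 0.257, 0.298 and 0.156 CPM, counts scaled to the library total. Of the pairs of libraries, replicates 1 and 2 were the least alike. Pearson's r of log2(FPKM + 0.1), across genes, which are not independent replicates, was 0.974 for replicates 1 and 3, 0.971 for 2 and 3, and 0.948 for 1 and 2. This was so although replicates 1 and 2 shared processing batch 1 and replicate 3 was of batch 5. The difference ran along transcript length. Among 11241 genes grouped into 8 bins by the length that counts and FPKM together imply, the median log2 ratio of replicate 2 over 1 went from 0.27 in the bin of the shortest transcripts, median 0.952 kb, to -0.59 in the bin of the longest, median 9.51 kb. The ratio of replicate 3 over 1 went from 0.09 to -0.26 over the same bins. Levels of short and of long transcripts therefore have to be read with this trend beside them, and its part in the results below was measured only where a value with the trend removed is given.

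**Figure D1:**
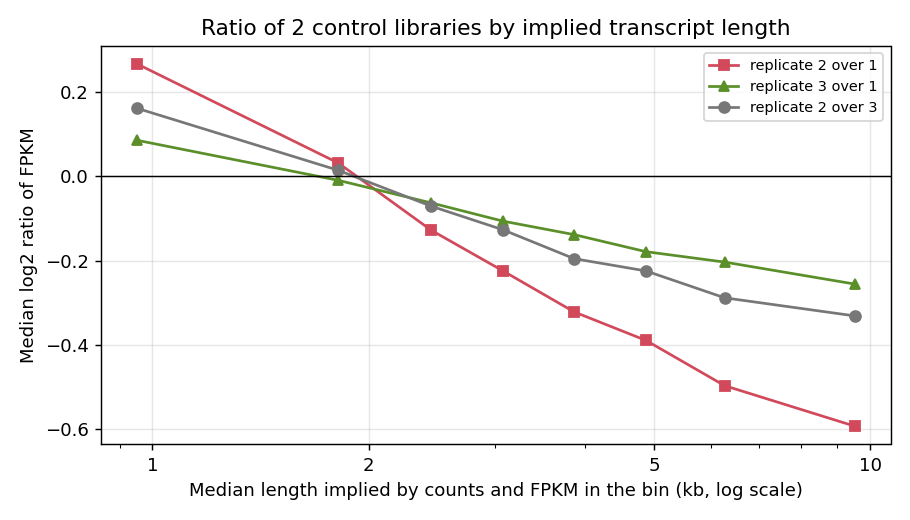
Median log2 ratio of FPKM between pairs of control libraries (y axis) in 8 bins of implied transcript length (x axis, kb, log scale), 1405 or 1406 genes a bin. All 3 lines fall with length, most steeply replicate 2 over 1, which runs from 0.27 to -0.59.

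Some FPKM values were not estimates of a level. Mbp, which encodes myelin basic protein, was listed at 17400.4 and 16699.8 FPKM in replicates 1 and 2 but at the deposited minimum of 0.1 in replicate 3, where it had 1078572 counts. Its share of all counts was 5.32%, 5.597% and 5.606%, with Wilson 95% intervals of 5.31% to 5.33%, 5.583% to 5.611% and 5.595% to 5.616%, which cover counting error only. Mbp was therefore read by its counts, and its FPKM in replicate 3 was not read as a level. The summed FPKM of replicate 3, and every share of it given below, lacks Mbp, whereas those of replicates 1 and 2 hold it. Ogt, the enzyme that attaches N-acetylglucosamine to intracellular proteins, showed the same pattern, with 22.3, 14.7 and 0.1 FPKM. In the opposite direction, 58 genes passed 1 FPKM while having 0 counts in every library, among them Fth1, the ferritin heavy chain, at 9837, 11961 and 11641 FPKM, and Cldn5, the claudin of endothelial tight junctions, at 96.8, 112 and 89.1 FPKM. Rpl23a and Rpl10a, 2 proteins of the large ribosomal subunit, were listed at 565, 750.4 and 633 and at 248, 342 and 283 FPKM with 0 counts as well. For these genes only FPKM can be described. The length that counts and FPKM together imply was under 0.1 kb for 91 of 13117 expressed genes with a count. For very short transcripts the level by FPKM therefore rests heavily on the scaling to length.

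By the study's threshold, FPKM over 1 in at least 1 library, 13175 of 30443 genes were expressed in the sham cord, 12457 protein-coding genes (56.4% of 22075) and 718 lncRNA genes (8.58% of 8368). In all 3 libraries 11423 genes passed. Counts of list members over 1 FPKM below are to be set beside the 56.4% of all protein-coding genes. The levels were spread unevenly: 704 genes had a mean over 100 FPKM and 30 a mean over 1000 FPKM, whereas the median over the expressed genes was 7.68, 5.91 and 6.95 FPKM. The 20 highest genes of a library held 15.6 ± 0.756% (SD, n = 3) of the counts. They held 16.5%, 19.9% and 16.1% of the summed FPKM, the last without Mbp. A total of 388, 263 and 357 genes sufficed to reach 50% of the summed FPKM, with the same gap in replicate 3, and 836, 712 and 790 genes to reach 50% of the counts, in both cases fewest in replicate 2.

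The 20 protein-coding genes with the highest mean FPKM included genes of glia, secreted proteins, metal binding, the ribosome and energy supply, and 2 genes without a name. After Mbp and Fth1 came Ptgds, the prostaglandin D2 synthase that is also a lipid carrier of the meninges and cerebrospinal fluid, at 6851 ± 1054 FPKM. Cst3, the secreted protease inhibitor cystatin C, followed at 5906 ± 1371 FPKM, and Apoe, the lipid carrier made by astrocytes, at 3911 ± 1056 FPKM. The thymosin Tmsb4x, which binds actin monomers, was at 2302, 3006 and 2821 FPKM, and Apod, an apolipoprotein of oligodendrocytes and fibroblasts, at 2415, 2607 and 2783 FPKM.

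Of the glial genes among the 20 highest, S100b and Gfap were close between libraries. S100b, a calcium-binding protein of glia, was at 2295, 2408 and 2751 FPKM, and Gfap, the astrocytic intermediate filament, at 1596 ± 69.02 FPKM. S100b exceeded Gfap in 3 of 3 libraries, by 1.56 ± 0.107 times. Mt3, the metallothionein of the nervous system, which binds zinc and copper, spread more widely at 1766, 3293 and 2009 FPKM, and Ckb, the brain creatine kinase, reached 1461, 2068 and 1369.6 FPKM. Rps29, Rplp1 and Rpl41, which encode ribosomal proteins, were at 1884, 3075 and 2525 FPKM, at 1436, 2153 and 1777 FPKM and at 1127, 1742 and 1443 FPKM, and Atp5i, a subunit of the mitochondrial ATP synthase, was also highest in replicate 2, at 1131, 1804 and 1266 FPKM. Gapdh, the glycolytic enzyme often used as a reference gene, differed little, at 1291 ± 107 FPKM. By CPM, Gapdh was at 1529, 1499 and 1428, Atp5i at 142, 263 and 205 and Rps29 at 232, 443 and 402. The implied lengths of Atp5i were 0.126, 0.146 and 0.162 kb and those of Rps29 0.123, 0.144 and 0.159 kb. Their rank above Gapdh therefore rests on the scaling to length.

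Of the same 20 genes, 3 passed a 2-fold range between the libraries, beside 16.8% of all expressed genes. Usmg5, another small protein of the ATP synthase, was listed at 1738, 1776 and 419.7 FPKM, while its CPM, 34.8, 53.99 and 37.3, gave another order of the libraries. It had only 406, 543 and 717 counts and implied lengths of 0.020, 0.030 and 0.089 kb, so its FPKM rank was not read as abundance. AABR07015057.1 and LOC100909555, which carry no gene name in the tables, were at 3263, 9328 and 5254 and at 2852, 8163 and 5585 FPKM, in both cases lowest in replicate 1 and highest in replicate 2.

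**Figure D2:**
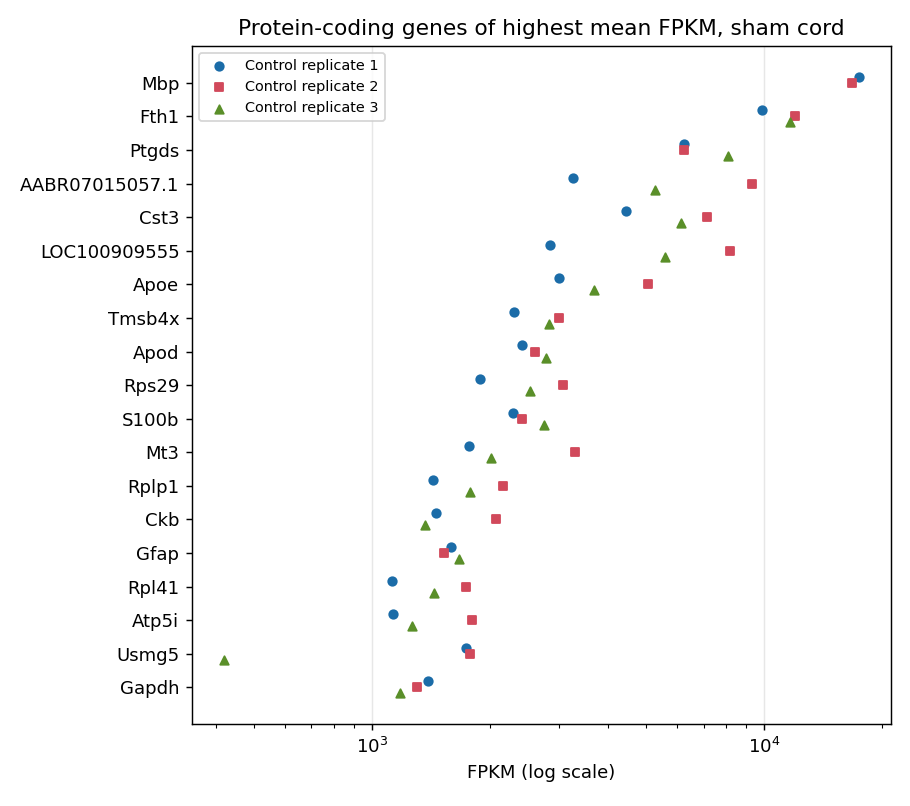
FPKM (x axis, log scale) of 19 of the 20 protein-coding genes with the highest mean FPKM, with 1 point per control library. The value of Mbp in replicate 3 is left out because it was not an estimate. Gfap (1594, 1528 and 1666) and Gapdh (1390.0, 1306 and 1177) lie within narrow ranges, and Usmg5 (1738, 1776 and 419.7) does not.

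Markers of myelinating oligodendrocytes held the largest share of the counts among the 21 cell type lists. The 25 measured genes of the myelin and oligodendrocyte list, all expressed, held 8.91%, 8.57% and 9.25% of the counts, against 2.99%, 3.31% and 3.26% for 23 astrocyte genes and 1.43%, 1.37% and 1.09% for 20 general neuron genes. The order of these 3 shares held in 3 of 3 libraries. It rested on Mbp in part, since with Mbp left out of the list and of the totals, the remaining 24 myelin genes held 3.79%, 3.15% and 3.86% of the counts and the astrocyte genes 3.16%, 3.51% and 3.46%, so that replicate 2 had the order reversed. As shares of the summed FPKM without Mbp, the myelin genes held 2.25%, 1.54% and 2.08% and the astrocyte genes 2.79%, 3.001% and 3.01%, so that the order was reversed in 3 of 3 libraries. The astrocyte list kept its own highest gene, Apoe, in this comparison. With the highest gene of each list left out, the mean shares of the summed FPKM were close, 1.91% for myelin and 1.99% for astrocyte genes. The 21 lists together, 339 genes, held 15.6%, 15.6% and 16.2% of the counts. The fibroblast and meninges list held 1.06%, 1.09% and 1.38%, below the neuron list in 2 of 3 libraries and above it in replicate 3. As shares of the summed FPKM this order turned, with 2.12%, 1.98% and 2.74% for the fibroblast and meninges list against 1.16%, 1.06% and 0.916% for the neuron list, and Ptgds and Apod, which glia also express, were the highest members.

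**Figure D3:**
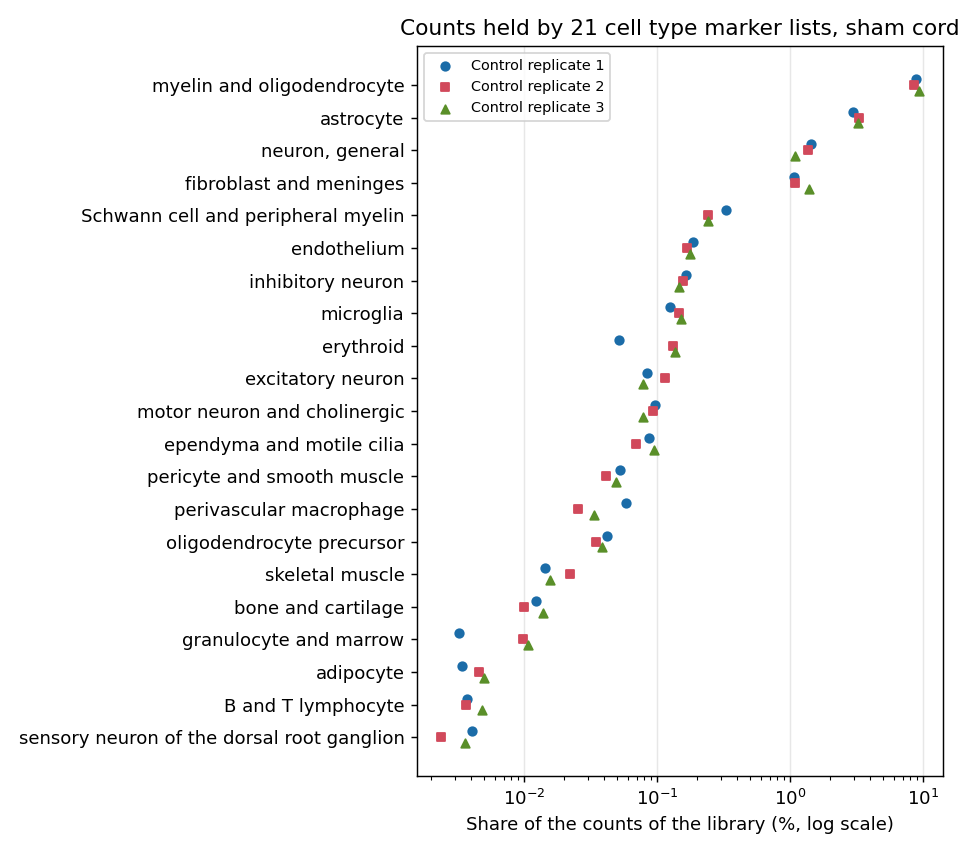
Share of the counts of each control library held by 21 marker lists (x axis, %, log scale), ordered by the mean, with 1 point per library. Myelin genes hold about 9% and astrocyte genes about 3% in every library, whereas the erythroid list (0.0519%, 0.132% and 0.135%) and the granulocyte list (0.00322%, 0.00974% and 0.0106%) are lowest in replicate 1.

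Within the myelin list the structural proteins led. Cnp, the cyclic nucleotide phosphodiesterase of the myelin cytoplasm, was at 898 ± 31.2 FPKM. Cldn11, the claudin of myelin tight junctions, was at 636, 556 and 648 FPKM, Mag, the adhesion protein of the innermost myelin layer, at 591, 615 and 578 FPKM, and Mobp, a basic protein of compact myelin, at 625, 531 and 564 FPKM. Mog, the glycoprotein of the outer myelin surface, reached 293, 236 and 279 FPKM.

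Gjb1, a connexin by which oligodendrocytes couple to other glia, was at 169, 152 and 164 FPKM. Fa2h and Ugt8, enzymes of the galactolipids of myelin, were at 154, 127 and 132 and at 159, 88.7 and 135 FPKM. Of the regulators, Olig1 was at 182, 201 and 190.1 FPKM and Sox10 at 70.9, 70.7 and 75.8 FPKM, while Olig2 was at 29.2, 16.2 and 26.1 FPKM, and Myrf, which drives myelin genes in mature oligodendrocytes, at 55.2, 48.7 and 49.02 FPKM. Precursor genes were lower. Of 9 measured genes of the oligodendrocyte precursor list, 8 passed 1 FPKM, with list medians of 6.39, 5.57 and 6.21 FPKM, beside 154, 118 and 109 FPKM for the myelin list. The myelin median of replicate 3 was taken without Mbp, whereas those of replicates 1 and 2 include it. Pdgfra, the growth factor receptor of precursors, was at 9.84, 5.57 and 8.201 FPKM and Cspg4, the NG2 proteoglycan, at 4.41, 3.54 and 3.47 FPKM. Gpr17, a receptor of cells committed to differentiate, was at 6.39, 1.95 and 4.16 FPKM, lowest in replicate 2.

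All 23 astrocyte genes were expressed. Aldoc, the aldolase of astrocytes, was at 1235 ± 71.2 FPKM, Clu, the extracellular chaperone clusterin, at 1036 ± 41.6 FPKM, and Sparcl1, a secreted synaptogenic protein, at 615 ± 34.6 FPKM. The SD of each of these 3 was under 10% of its mean. Glul, which makes glutamine from glutamate, reached 474, 331 and 415 FPKM, and Aqp4, the water channel of astrocytic endfeet, 242, 184 and 244 FPKM. The glutamate transporters, which clear the synapse, were lower, Slc1a3 at 27.9, 19.6 and 26.2 FPKM and Slc1a2 at 17.9, 16.7 and 14.95 FPKM. Kcnj10, the inward rectifier by which astrocytes take up potassium, ranged most in the list, at 15.6, 2.395 and 8.12 FPKM on 412, 63 and 364 counts, lowest in replicate 2. Vim, the intermediate filament of ependyma and immature astrocytes, was at 318, 222 and 330.1 FPKM, and Gfap exceeded it 5.65 ± 1.07 times.

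General neuron genes had medians of 118, 102 and 88.7 FPKM and were highest in replicate 1 or 2. Of 19 expressed members, 14 were highest in replicate 1, against 59.7% of all expressed genes, and 13 were lowest in replicate 3, against 18.8% of all expressed genes. Uchl1, the ubiquitin hydrolase of neuronal cytoplasm, was at 896, 1225 and 832 FPKM, and Snap25, a fusion protein of synaptic vesicles, at 724, 448 and 474 FPKM. Stmn3, a neuronal regulator of microtubules, was at 625, 945 and 606 FPKM. Synaptic vesicle genes were present with Syp, synaptophysin, at 177, 128 and 125 FPKM and Syn1, a synapsin, at 69.2, 57.3 and 55.6 FPKM. Rbfox3, the splicing factor recognised as the nuclear antigen NeuN, was at 31.9, 16.8 and 19.4 FPKM. Eno2, the enolase of neurons, was listed at only 0.316, 0.155 and 0.266 FPKM with 15, 7 and 19 counts, and a level this low was not read as absence.

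The neurofilament genes, which encode the scaffold of large axons, were higher than Syp and Syn1 in every library. Nefm, the medium subunit, was at 545, 415 and 347 FPKM, Nefl, the light subunit, at 506, 303 and 314 FPKM, and Nefh, the heavy subunit, at 367, 401 and 254 FPKM. Nefm exceeded Nefl and Nefh in 3 of 3 libraries, whereas Nefl exceeded Nefh in 2 of 3, so the order of the light and heavy subunits did not hold in replicate 2. Prph, the peripherin of motor and sensory neurons, was at 90.9, 122 and 82.4 FPKM and Ina, alpha-internexin of central neurons, at 49.8, 34.4 and 32.8 FPKM.

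The motor neuron list had medians of 7.18, 5.13 and 4.83 FPKM. Chat, which makes acetylcholine, was at 7.18, 5.13 and 4.83 FPKM, and Slc5a7, the choline transporter, at 5.31, 1.86 and 3.04 FPKM. Ache, which breaks acetylcholine down, was higher at 66.995, 61.1 and 44.9 FPKM, and Chodl, a marker of fast motor neurons in mouse, was at 26.8, 25.3 and 21.9 FPKM. Calca, which encodes the peptide CGRP, was at 21.8, 13.3 and 7.97 FPKM, in the same order of libraries as Chat. The embryonic motor neuron factors Mnx1 and Isl1 were at 1.17, 0.711 and 0.537 and at 0.337, 0.248 and 0.326 FPKM. In all, 12 of 17 measured genes of the motor neuron and cholinergic list passed 1 FPKM (70.6%), beside 56.4% of all protein-coding genes. Of these 12, 11 were highest in replicate 1, against 59.7% of all expressed genes.

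Inhibitory markers combined glycine and GABA. Slc6a9, the glial glycine transporter, was at 134 ± 3.75 FPKM and exceeded Slc6a5, the neuronal one, at 18.2, 8.98 and 10.5 FPKM, by 11.7 ± 3.92 times. Slc32a1, which loads both transmitters into vesicles, was at 47.7, 43.8 and 38.2 FPKM. Gad1 and Gad2, the enzymes that make GABA, were at 18.5, 13.997 and 11.9 and at 6.27, 4.197 and 4.16 FPKM, with Gad1 higher by 3.04 ± 0.257 times. Pvalb, the calcium buffer of fast-spiking interneurons and of large sensory neurons and muscle, was at 147, 202 and 134 FPKM. Npy, neuropeptide Y, was listed at 0.1 FPKM in every library, with 0, 0 and 1 counts, too few to be resolved at this depth.

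Among excitatory markers Slc17a6, the vesicular glutamate transporter VGLUT2, was at 15.2, 12.3 and 11.3 FPKM and Slc17a7, VGLUT1, at 1.64, 3.91 and 1.37 FPKM, with VGLUT2 higher in 3 of 3 libraries. Of the peptide precursors of dorsal horn neurons, Sst, somatostatin, was at 213, 359.6 and 220.01 FPKM, Penk, the precursor of enkephalins, at 103, 129 and 88.2 FPKM, and Cck, cholecystokinin, at 40.99, 78.7 and 41.5 FPKM. Sst exceeded Penk by 2.45 ± 0.365 times and Penk exceeded Cck by 2.09 ± 0.438 times, both in 3 of 3 libraries. The tachykinin precursors were lower, Tac3 (neurokinin B) at 30.6, 46.2 and 31.5 FPKM and Tac1 (substance P) at 28.6, 35.1 and 31.7 FPKM. Calb2, the calcium buffer calretinin, was at 81.6, 109.6 and 65.1 FPKM. In this list 12 of 18 expressed genes were highest in replicate 2, against 23.9% of all expressed genes, and the 16 of them in the length bins had a median implied length of 1.90 kb, short beside 3.46 kb for all genes in those bins. Their median log2 ratio of replicate 2 over 1 was 0.37, and 0.25 with the trend with length removed.

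Of 34 measured genes of the neuropeptide list, which includes the machinery of dense core vesicles, 27 passed 1 FPKM (79.4%). The share over all protein-coding genes was 56.4%. The granins and processing enzymes were among the highest, with Cpe, the carboxypeptidase that trims peptides, at 276 ± 14.6 FPKM, Chga, chromogranin A, at 152, 212 and 137 FPKM, and Scg5, the chaperone 7B2, at 157, 155 and 136 FPKM. Gal, galanin, was at 22.7, 23.8 and 25.7 FPKM, Pnoc, the nociceptin precursor, at 16.8, 17.5 and 17.9 FPKM, and Pdyn, the dynorphin precursor, at 4.598, 5.87 and 5.66 FPKM. Avp and Oxt, the hypothalamic peptides vasopressin and oxytocin, were at 0.845, 1.29 and 1.27 and at 0.677, 0.272 and 0.1 FPKM.

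Receptor genes for these transmitters were mostly low. For glycine, Glrb, the subunit that anchors the receptor, was at 30.5, 19.1 and 20.1 FPKM, Gphn, its anchor gephyrin, at 16.6, 9.19 and 12.5 FPKM, and the adult alpha subunit Glra1 at 4.48, 3.47 and 2.97 FPKM, above Glra2 at 1.704, 1.28 and 1.36 FPKM by 2.51 ± 0.278 times. Glra3 and Glra4 stayed at 0.1 FPKM. Of 16 GABA-A receptor genes 7 passed 1 FPKM (43.8%), beside 56.4% of all protein-coding genes. Gabra5 led with 9.25, 6.54 and 6.19 FPKM.

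Among AMPA receptor subunits, the fast glutamate receptors, Gria4 was highest at 15.4, 8.29 and 9.79 FPKM, then Gria3 at 9.27, 6.696 and 6.66 FPKM, Gria2, which makes the channel impermeable to calcium, at 6.84, 3.62 and 5.47 FPKM, and Gria1 at 3.58, 2.08 and 2.84 FPKM. Gria4 and Gria3 both exceeded Gria2 in 3 of 3 libraries. The auxiliary subunit Cacng7 stood above all of them at 86.2, 61.8 and 69.7 FPKM. Among NMDA receptor subunits, Grin1, which every such receptor holds, was at 41.8, 41.99 and 34.3 FPKM, Grin2c at 18.03, 21.9 and 20.1 FPKM and Grin2d at 4.11, 2.42 and 3.37 FPKM, whereas Grin2a and Grin2b, the main partners in adult forebrain, stayed at 0.174, 0.165 and 0.167 and at 0.453, 0.948 and 0.5904 FPKM. Grin2d exceeded Grin2b in 3 of 3 libraries, by 9.08, 2.55 and 5.70 times.

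Serotonin and noradrenaline reach the cord through fibres whose cell bodies lie in the brainstem. Tph2 and Th, the enzymes that start serotonin and catecholamine synthesis, were at 0.208, 0.176 and 0.162 and at 0.193, 0.509 and 0.266 FPKM, and Dbh and Slc6a4 were at 0.1 FPKM in all libraries. Of 26 monoamine receptor genes 11 passed 1 FPKM (42.3%), beside 56.4% of all protein-coding genes. Htr2c, a serotonin receptor, led at 14.3, 8.12 and 9.49 FPKM, with the noradrenaline receptors Adra2c at 7.85, 10.6 and 7.38 FPKM and Adra2a at 5.998, 6.72 and 6.59 FPKM. Htr2c exceeded Htr2a by 9.02 ± 0.219 times in 3 of 3 libraries. The list of peptide receptors had medians of 1.099, 0.897 and 0.801 FPKM, with Oprm1, the mu opioid receptor, at 0.115, 0.172 and 0.1 FPKM on 4, 5 and 3 counts, too few to be resolved, and Tacr1, the substance P receptor, at 1.01, 0.146 and 0.335 FPKM. Ntsr2, a neurotensin receptor that astrocytes express, was the highest of them at 101 ± 7.51 FPKM.

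The sodium-potassium pump, which restores ion gradients after firing, was encoded by abundant RNA. Of 10 genes for its subunits and regulators 8 had a mean over 100 FPKM. The chloride exporter of neurons Slc12a5 (KCC2), which keeps inhibition hyperpolarizing, was at 27.2, 9.33 and 14.3 FPKM and the importer Slc12a2 (NKCC1), which glia also carry, at 36.1, 25.4 and 29.8 FPKM.

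Among sodium channel genes the beta subunit Scn4b was at 50.9, 39.8 and 35.3 FPKM, while the pore subunits Scn2a and Scn8a were at 2.695, 1.98 and 2.25 and at 2.61, 1.17 and 1.56 FPKM. Hcn2, the pacemaker channel, was at 109 ± 4.895 FPKM. Kcnc1, a potassium channel of fast-spiking neurons, was at 26.1, 18.3 and 19.4 FPKM. Of 29 expressed potassium channel genes 25 were highest in replicate 1, and 11 of 12 expressed calcium channel genes were too, against 59.7% of all expressed genes. Their median implied lengths were 4.69 and 8.73 kb, and the median log2 ratio of replicate 2 over 1 went from -0.49 to -0.10 and from -0.54 to 0.07, respectively, once the trend with length was removed, over the 22 and 8 members in the length bins. At the node of Ranvier, Hapln2, a link protein of the nodal matrix, was at 326, 418 and 356 FPKM, Nfasc, neurofascin, at 36.5, 26.8 and 30.7 FPKM, and Cntnap1, the paranodal Caspr, at 32.7, 26.3 and 24.3 FPKM.

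The thoracic origin of the tissue could be checked by the Hox genes, transcription factors whose paralog groups are expressed in order along the body axis. Of 32 measured Hox genes 23 passed 1 FPKM (71.9%), beside 56.4% of all protein-coding genes. Hoxb8 was highest at 88.1 ± 14.4 FPKM, followed by Hoxb6 at 28.6, 42.7 and 34.3 FPKM, Hoxb7 at 27.7, 37.3 and 25.7 FPKM, Hoxc8 at 23.8, 18.1 and 20.6 FPKM and Hoxc9 at 16.4, 20.7 and 15.7 FPKM. Hoxb8 exceeded Hoxb6 in 3 of 3 libraries. Summed over measured genes, paralog group 8 reached 116 ± 12.3 FPKM (SD, n = 3), group 6 48.4 ± 5.31 FPKM, group 7 44.6 ± 6.27 FPKM and group 9 27.6 ± 5.82 FPKM. Group 10 was at 3.93 ± 1.90 FPKM, and groups 11 to 13 had no expressed member among 6 measured genes.

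Relative to their means, the sums of groups 9 and 10 spread more between libraries than those of groups 6 to 8. Hoxd9 was at 2.92, 8.19 and 1.85 FPKM on 70, 172 and 71 counts and Hoxc10 at 3.74, 5.78 and 1.97 FPKM on 131, 197 and 121 counts, both highest in replicate 2 and lowest in replicate 3, while Hoxb9 was at 7.77, 4.61 and 4.26 FPKM, highest in replicate 1. Hoxa9, Hoxb13, Hoxc12, Hoxd11, Hoxd12 and Hoxd13 had 0 counts in every library. Of 17 measured transcription factors of forebrain and midbrain, 1 passed 1 FPKM, Neurod6 at 1.52, 1.08 and 0.765 FPKM. The Y-linked genes Kdm5d, Uty, Eif2s3y and Sry had 0 counts in all libraries of these animals labelled female.

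**Figure D4:**
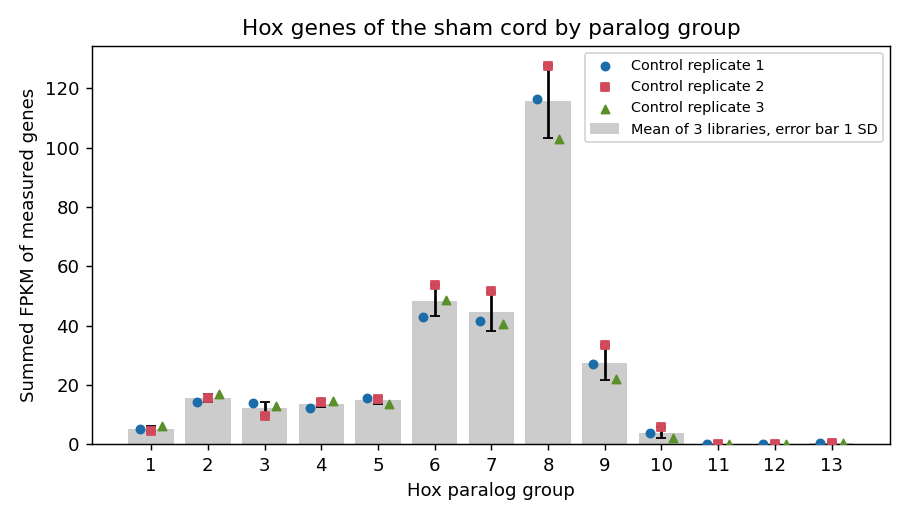
FPKM summed over the measured Hox genes of each paralog group (y axis) against the group number (x axis). Bars are the mean of 3 libraries with an error bar of 1 SD, and points are the libraries. The sums peak at group 8 (116 ± 12.3) and fall to 3.93 ± 1.90 at group 10.

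Microglial genes were all expressed at moderate levels. Ctss, the lysosomal protease cathepsin S, was at 220.1 ± 11.9 FPKM, and the complement genes C1qa, C1qb and C1qc, which microglia supply in the nervous system, were at 104, 185 and 145, at 69.8, 88.9 and 87.5 and at 54.7, 65.9 and 67.2 FPKM. The homeostatic receptors Cx3cr1 and P2ry12 were at 8.49, 3.61 and 7.31 and at 7.503, 3.59 and 6.399 FPKM, both lowest in replicate 2, and Tmem119, a microglial surface protein, at 8.62, 10.2 and 11.7 FPKM. Of the 17 measured genes 9 were highest in replicate 3, against 16.4% of all expressed genes. Lymphocyte genes were near the floor, with 4 of 18 over 1 FPKM (22.2%), beside 56.4% of all protein-coding genes. Among these 4, Ighm, the heavy chain of IgM, was at 4.299, 7.58 and 7.79 FPKM and Cd4 at 5.62, 1.61 and 4.35 FPKM. In the rat, macrophages also express Cd4.

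Genes of antigen presentation spread widely between the pools. Cd74, the invariant chain of MHC class II, was at 352, 131 and 166 FPKM, RT1-Da, a class II alpha chain, at 83.3, 29.9 and 40.1 FPKM, and RT1-Ba, another, at 31.6, 5.92 and 10.96 FPKM, all highest in replicate 1 by 2 or more times. B2m, the light chain of MHC class I, was at 276, 228 and 302 FPKM and did not follow this order. In the MHC and complement list 11 of 18 expressed genes passed a 2-fold range over the libraries, and in the microglia list 3 of 17, beside 16.8% of all expressed genes. RT1 genes belong to families of near-identical copies, so their counts are uncertain. Inflammatory cytokines were low, with Il1b at 0.488, 0.367 and 0.351 FPKM, Il6 at 0.204, 0.1 and 0.1 FPKM and Ccl2 at 0.619, 0.806 and 0.849 FPKM, while Csf1 and Il34, the growth factors of microglia, were at 21.9, 18.2 and 21.95 and at 14.6, 13.8 and 14.9 FPKM.

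The vessel lists were expressed in full or nearly so, 19 of 19 endothelial and 13 of 14 pericyte and smooth muscle genes. Bsg, basigin of the barrier endothelium and of many other cells, was at 437 ± 28.999 FPKM, and Slc2a1, the glucose transporter of the barrier, at 92.4, 70.5 and 67.02 FPKM. Mfsd2a, the lipid transporter of barrier endothelium, was at 23.9, 20.8 and 20.2 FPKM, and the pericyte genes Vtn and Rgs5 were at 40.5, 31.7 and 37.6 and at 15.04, 8.97 and 10.3 FPKM. Collagen genes of the meninges, Col1a1 at 47.5, 24.7 and 49.3 FPKM and Col3a1 at 55.8, 23.4 and 52.9 FPKM, were lowest in replicate 2, as were 13 of 16 expressed genes of that list, beside 61.6% of all expressed genes. Col1a2, the partner chain of Col1a1, was listed at 0.1 FPKM with 6, 6 and 18 counts. Genes of the ependyma and motile cilia list had medians of 1.39, 1.03 and 1.25 FPKM. Of its 18 measured genes 10 passed 1 FPKM, close to the 56.4% of all protein-coding genes. Tekt1, a protein of ciliary microtubules, was at 7.83, 8.38 and 8.38 FPKM.

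Genes of peripheral myelin were present in every library. Pmp22, a peripheral myelin protein, was at 302, 177 and 200.5 FPKM and Prx, periaxin of Schwann cells, at 25.8, 21.98 and 16.5 FPKM. The list held 0.329% of the counts in replicate 1 and 0.239% in each of replicates 2 and 3. Of 13 measured genes of the list of dorsal root ganglion sensory neurons, 3 passed 1 FPKM (23.1%), beside 56.4% of all protein-coding genes. This sensory neuron list held 0.00404%, 0.00237% and 0.00358% of the counts. Prdm12, Mrgprd and Pirt had 0 counts in all libraries, and Scn10a and Scn11a were at or near 0.1 FPKM. Ntrk3, the neurotrophin 3 receptor that cord neurons also express, was the highest of that list at 7.58, 1.47 and 4.41 FPKM. Muscle, bone and fat genes were low, with Acta1, skeletal actin, at 2.196, 3.205 and 2.37 FPKM and Adipoq, adiponectin of fat cells, at 2.87, 5.31 and 5.77 FPKM. Bglap, osteocalcin of osteoblasts, was at 0.1, 2.31 and 20.6 FPKM on 2, 16 and 194 counts, that is, mostly in replicate 3.

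Most blood and marrow genes were lowest in replicate 1. Hba1, the alpha chain of haemoglobin, was at 399, 1248 and 1123 FPKM, Hbb, the beta chain, at 155, 372 and 440.4 FPKM, and Alas2, which starts haem synthesis in erythroid cells, at 1.21, 2.74 and 3.14 FPKM. Of 8 expressed erythroid genes 7 were lowest in replicate 1, against 19.6% of all expressed genes, and 7 passed a 2-fold range, beside 16.8% of all expressed genes. The granulocyte genes went the same way, with S100a8 at 17.2, 47.3 and 48.01 FPKM, S100a9 at 9.32, 28.5 and 33.4 FPKM, the neutrophil defensin Np4 at 4.71, 12.8 and 15.1 FPKM, Prg2 of eosinophils at 3.799, 9.89 and 9.898 FPKM and Camp, cathelicidin, at 1.604, 5.52 and 6.31 FPKM. All 14 expressed genes of the granulocyte and marrow list were lowest in replicate 1, and 12 passed a 2-fold range, beside the same shares. With the trend with length removed, the median log2 ratios of replicates 2 and 3 over 1 were 0.94 and 1.36 for the erythroid list and 1.17 and 1.55 for the granulocyte list. These medians rest on the 6 erythroid and 9 granulocyte members in the length bins. The part of blood and marrow RNA in the other differences between the pools was not tested.

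**Figure D5:**
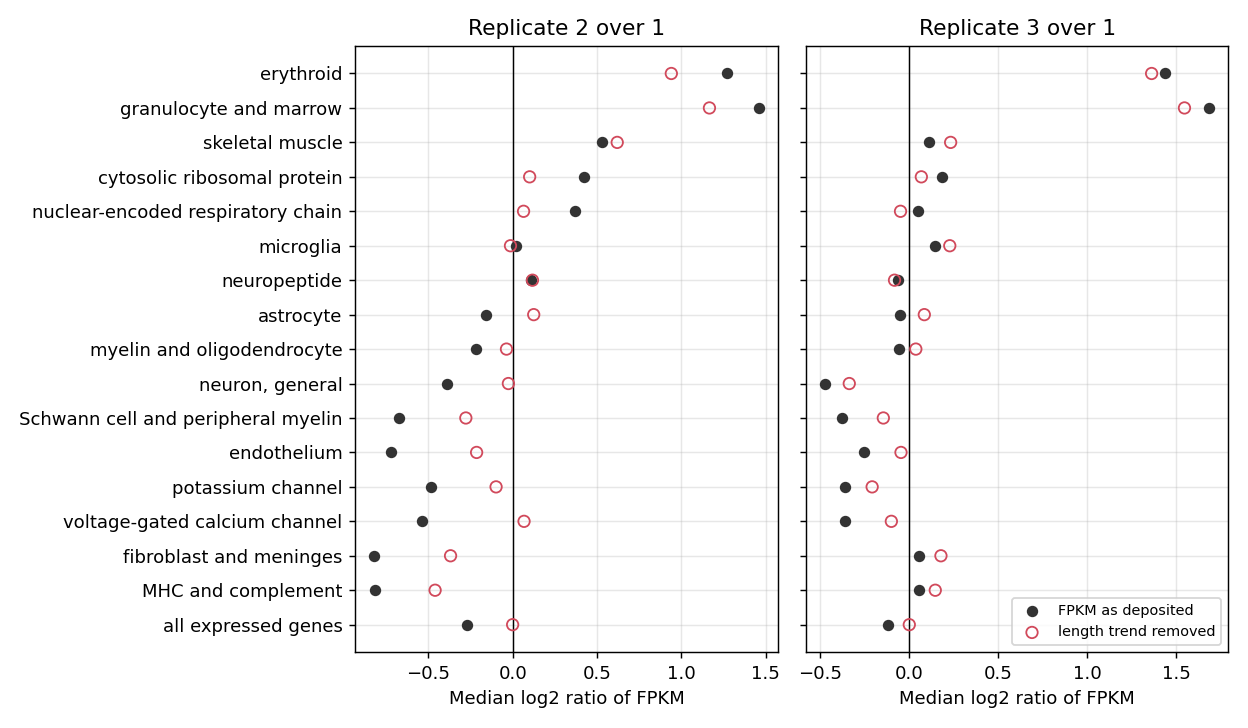
Median log2 ratio of FPKM between control libraries for 16 gene lists and for all expressed genes, replicate 2 over 1 on the left and replicate 3 over 1 on the right. Filled points use FPKM as deposited and open circles the same after the trend with implied length was removed. Erythroid and granulocyte lists lie above 0.9 in both panels under both, whereas the calcium channel list moves from -0.54 to 0.07 on the left.

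Genes of protein synthesis and respiration had the highest medians of the 3 housekeeping lists. Of 57 measured cytosolic ribosomal protein genes 54 were expressed and 50 had a mean over 100 FPKM, with list medians of 445, 603 and 505 FPKM. Of 60 measured nuclear genes of the respiratory chain 59 were expressed, with medians of 196, 270.000 and 208 FPKM. Cox8a, a subunit of cytochrome oxidase, was at 965, 1276 and 1095 FPKM, and Cox6a1, another, at 899.9, 1314 and 994 FPKM. In replicate 2, 43 of 54 ribosomal and 45 of 59 respiratory genes had their highest value, against 23.9% of all expressed genes. Both families are short, with median implied lengths of 0.639 and 0.816 kb. The median log2 ratio of replicate 2 over 1 was 0.43 for ribosomal and 0.37 for respiratory genes as deposited, and 0.10 and 0.06 with the trend with length removed.

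The promoters of 4 highly expressed genes, of glia, neurons, the ribosome and respiration, are shown because their short motifs are the ones counted over gene classes below. The 150 bases before the RefSeq start are printed 5′ to 3′ on the gene's strand from build GRCr8, with capitals for any match, on either strand, to one of 6 motifs. These were the core TATAAA of the TATA box, the pentamer CCAAT bound by the factor NF-Y, the Sp1 core GGGCGG of GC-rich promoters, the ETS factor core CCGGAAG, the cyclic AMP response element TGACGTCA, and the YY1 core AAGATGGC.
S100b (GRCr8 chr20:12381082-12381231, minus strand): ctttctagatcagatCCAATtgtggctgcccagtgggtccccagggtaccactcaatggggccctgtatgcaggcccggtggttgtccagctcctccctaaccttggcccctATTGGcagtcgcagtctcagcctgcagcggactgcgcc
Uchl1 (GRCr8 chr14:41849418-41849567, minus strand): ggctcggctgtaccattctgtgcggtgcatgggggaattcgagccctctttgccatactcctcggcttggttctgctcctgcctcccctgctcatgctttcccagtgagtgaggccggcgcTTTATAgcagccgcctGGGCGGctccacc
Rpl41 (GRCr8 chr7:1563498-1563647, minus strand): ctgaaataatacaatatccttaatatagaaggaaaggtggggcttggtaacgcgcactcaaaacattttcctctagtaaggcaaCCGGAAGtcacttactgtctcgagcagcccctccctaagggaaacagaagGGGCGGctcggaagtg
Cox8a (GRCr8 chr1:213833624-213833773, minus strand): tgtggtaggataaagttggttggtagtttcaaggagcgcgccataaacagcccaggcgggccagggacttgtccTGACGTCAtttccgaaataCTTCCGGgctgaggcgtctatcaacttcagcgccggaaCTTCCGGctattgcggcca
S100b, the glial calcium-binding gene, had CCAAT at 135 and 38 bases before the start, and Uchl1, the neuronal hydrolase, TATAAA at 29 and GGGCGG at 13 bases. Rpl41, of the ribosome, had CCGGAAG at 66 and GGGCGG at 16 bases. Cox8a, of cytochrome oxidase, had TGACGTCA at 76 and CCGGAAG at 57 and 19 bases.

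Over windows from 250 bases before to 50 after the start, CCGGAAG was found in 15 of 39 promoters of respiratory chain genes (38.5%) and 14 of 43 of ribosomal genes (32.6%), beside 16.8% of 8524 expressed genes and 9.49% of 24206 promoters in the table. None of 15 myelin, 14 astrocyte, 12 general neuron, 25 neuropeptide or 16 Hox promoters held it. TGACGTCA was found in 4 of 25 neuropeptide promoters (16%), beside 3.16% of those of expressed genes and 1.91% of all in the table. TATAAA was found in 7 of 25 (28%), beside 6.50% of those of expressed genes and 14.3% of all in the table. AAGATGGC was found in 9 of 39 respiratory promoters (23.1%), beside 5.61% of those of expressed genes and 3.58% of all in the table. CCAAT was found in 10 of 16 Hox promoters (62.5%), 9 of 14 astrocyte promoters (64.3%) and 1 of 12 general neuron promoters (8.33%), beside 37.4% of those of expressed genes. A match says only that these letters lie in the window, and the lists were matched by symbol, so members with no single entry are not included.

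Genes of lipid synthesis, which supplies the myelin sheath, were expressed throughout. All 23 cholesterol synthesis genes and all 20 measured genes of myelin lipid synthesis were expressed. Scd2, the desaturase that makes monounsaturated fatty acids in brain, was at 1247, 698 and 1013 FPKM. Hmgcs1, which feeds sterol synthesis, was at 192, 123 and 155 FPKM, and Fdps, the farnesyl diphosphate synthase, at 191, 210.2 and 175 FPKM. The elongases Elovl7 and Elovl5 spread most in the list of myelin lipid synthesis, at 22.7, 3.02 and 14.6 and at 60.7, 12.2 and 40.7 FPKM, both lowest in replicate 2, and Elovl5 had 1100, 239 and 1379 counts. In glycolysis Ldhb, the subunit that favours lactate use, exceeded Ldha in 3 of 3 libraries, at 535, 586 and 522 FPKM against 59.2, 49.8 and 55.5 FPKM.

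Metal-binding and antioxidant genes formed another high class. Of 18 measured genes 13 had a mean over 100 FPKM, and the list held 3.82%, 4.52% and 4.40% of the summed FPKM, most of it Fth1. Tf, transferrin of oligodendrocytes, was at 1207 ± 65.8 FPKM, Ftl1, the ferritin light chain, at 748, 1262 and 847 FPKM, and Sod1, a superoxide dismutase, at 437, 558 and 415 FPKM. Gpx4, which reduces lipid peroxides, was listed at 425, 692 and 473 FPKM although it had only 22, 12 and 23 counts. Chaperones were present with Hsp90ab1 at 442 ± 32.9 FPKM and Cryab, the small heat shock protein of glia, at 206, 197 and 215 FPKM, and Hspa1a, the inducible form, at 0.1 FPKM. Immediate early genes were low, with Fos at 6.26, 1.91 and 3.25 FPKM and Egr1 at 7.33, 4.35 and 4.59 FPKM, while Jund, which is expressed constitutively, was at 105, 174 and 128 FPKM.

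Markers of dividing cells were low. Mki67, the nuclear antigen of cycling cells, was at 0.245, 0.177 and 0.242 FPKM and Top2a, a topoisomerase of dividing cells, at 0.3497, 0.332 and 0.507 FPKM, whereas Pcna, which also serves DNA repair, was at 38.3, 42.9 and 43.8 FPKM. Of 21 measured cell cycle genes 11 passed 1 FPKM, close to the 56.4% of all protein-coding genes. Among inhibitors of axon growth, Rtn4, which encodes Nogo, was at 232, 157 and 191 FPKM, Sema4d, a semaphorin of oligodendrocytes, at 158 ± 8.72 FPKM, and Omg at 59.2, 48.7 and 54.8 FPKM, beside Mag above. Rtn4r, the receptor shared by Rtn4, Mag and Omg, was at 3.98, 7.35 and 4.405 FPKM and its partner Lingo1 at 20.3 ± 0.845 FPKM. Bdnf, a neurotrophin, was at 0.433, 0.325 and 0.359 FPKM, and the growth factor Gdnf was listed at 0.1 FPKM. Ptn, pleiotrophin, led the growth factors at 134, 100.05 and 136 FPKM, Cntf, a factor stored in glia, was at 28.8, 20.8 and 26.5 FPKM, and Ntrk2, the BDNF receptor, at 41.3, 26.98 and 34.9 FPKM. Of the clock genes 17 of 19 passed 1 FPKM, and Dbp, a clock output factor, was highest at 55.4, 80.8 and 73.3 FPKM.

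Long non-coding RNAs held 1.45 ± 0.0413% (SD, n = 3) of the summed FPKM and 1.37 ± 0.0589% of the counts, and expressed ones had medians of 2.05, 1.87 and 2.097 FPKM, beside 8.20, 6.38 and 7.41 FPKM for expressed protein-coding genes. The highest were ENSRNOG00000059660 at 266, 365 and 244 FPKM, LOC100912557 at 222, 260.3 and 250.1 FPKM and LOC103690996 at 213, 281 and 211 FPKM. Part of this class has since been annotated otherwise, since RefSeq on build GRCr8 lists LOC100912557 as Atp5mpl and LOC103690996 as Rpl35al1, both protein-coding, and Ndufb1, at 116, 229 and 172 FPKM, as protein-coding. Of the 96 lncRNA rows with a mean over 10 FPKM, 25 were lncRNA in that annotation, 11 protein-coding and 1 a transcribed pseudogene, and 59 were not matched.

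Of the 10 highest lncRNAs, 3 were listed as lncRNA there. LOC100911992 was at 134, 184 and 159 FPKM, LOC100911177 at 104, 178 and 126 FPKM, and Gas5, the host transcript of several small nucleolar RNAs, at 118 ± 8.37 FPKM. The others were LOC103694382 at 86.997, 199 and 155 FPKM, ENSRNOG00000054085 at 202, 90.1 and 114 FPKM and LOC103693743 at 149.8, 93.2 and 117 FPKM. ENSRNOG00000054085 had only 71, 36 and 108 counts and LOC103693743 only 67, 44 and 124. Their implied lengths were 0.030, 0.040 and 0.049 kb and 0.038, 0.047 and 0.055 kb, so their FPKM rank was not read as abundance. Conversely, LOC102552138 was listed at 0.1 FPKM with 2428, 2702 and 4380 counts and is missing from this ranking. Miat, an lncRNA of neurons, was at 23.2 ± 2.18 FPKM on 4183, 3460 and 6136 counts, and H19, an imprinted lncRNA, at 1.23, 1.51 and 2.197 FPKM.

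The spread between pools beyond counting error, the common biological coefficient of variation of edgeR over 13117 genes, was 0.183. For pairs of libraries it was 0.123 for replicates 1 and 3, 0.170 for 2 and 3, and 0.249 for 1 and 2. Over a 2-fold range between the highest and lowest library, on the log2(FPKM + 0.1) scale, lay 2209 of 13173 expressed genes (16.8%). This number was 393 without replicate 2, 868 without replicate 1 and 1973 without replicate 3. Replicate 2 had the lowest value for 61.6% of the expressed genes and replicate 1 the highest for 59.7%. No p-value is given for any difference between libraries, because they are of 1 group, and an exact two-sided sign-flip test over 3 libraries cannot go below 0.25.

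Among 6648 genes with at least 5 FPKM and 100 counts in every library, the median SD of log2 FPKM was 0.19, and 13 of the 15 most variable were highest in replicate 1 and 13 lowest in replicate 2. Sepp1, the selenium carrier of plasma, was at 216, 50.1 and 160.5 FPKM, Serinc1, which aids serine use in membrane lipids, at 102, 26.3 and 67.2 FPKM, Dpysl2, the axonal protein CRMP2, at 44.1, 11.8 and 26.8 FPKM, and Mgll, which degrades the endocannabinoid 2-AG, at 22.3, 6.28 and 15.7 FPKM. Sh3gl2, endophilin of synaptic vesicle recycling, was at 32.8, 8.07 and 16.4 FPKM and Gnai1, an inhibitory G protein subunit, at 24.7, 5.93 and 14.9 FPKM. Tmprss5, Coro2b, Snx10, AABR07046778.1 and AABR07011951.1 had the same order of libraries, as did Elovl5. Il17d was listed at 92.1, 9.47 and 57.8 FPKM while its CPM, 11.9, 13.4 and 14.8, ranged less. Capg, an actin capping protein of macrophages, went the other way at 9.28, 36.2 and 27.2 FPKM, lowest in replicate 1.

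The SD of the 10 steadiest genes was under 1% of their means. Dda1, a component of a ubiquitin ligase, was at 38.4, 38.6 and 38.6 FPKM, Bcap31, a protein of the endoplasmic reticulum, at 98.4, 97.4 and 97.6 FPKM, and Arfip2, which binds small GTPases, at 36.1, 36.3 and 35.9 FPKM. Ltbp3, Timm9, Tysnd1, Wipi1, Fgd3, LOC498154 and LOC102554201 completed the 10 with the smallest spread. For Wipi1, which takes part in autophagy, the CPM, 27.9, 17.8 and 24.5, did not share this steadiness.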

How the data were processed

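RNA of 3 control libraries, each a pool of 3 rats, was sequenced as poly-A TruSeq libraries. Per the labels and the study's methods, reads were demultiplexed with CASAVA 1.7 and mapped by TopHat2 2.1.0, with Rnor6 as the genome. The deposited FPKM values were made by the authors with Cufflinks 2.2.1, and values under 0.1 were set to 0.1. The deposited raw counts per gene were made by the authors with HTSeq. The sources used here name neither its version nor a strand option, so overlapping, antisense and near-identical genes cannot be separated. Control columns were taken by their names, and 0 columns lacked a sample.

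Tables were read with Python 3.11.15, pandas 2.3.3 and numpy 2.4.6. A gene was expressed at over 1 FPKM in at least 1 library. Correlations and 2-fold ranges used log2(FPKM + 0.1), whereas ratios between libraries in length bins and lists used FPKM with nothing added. The common biological coefficient of variation was fitted to the counts with R 4.3.3 and edgeR 4.0.16, which was tested on simulated data. Implied length, in kb, was the count scaled to the library total (CPM), divided by FPKM. The length bins used only genes with at least 10 counts and 1 FPKM in every library and at least 0.2 kb. For values with the trend removed, the median ratio of each of 20 length bins was subtracted. The libraries hold 10057646 to 19241259 counts, and their number limits the precision.

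Named genes were the 20 protein-coding genes and 10 lncRNAs of highest mean FPKM, the 15 most and 10 least variable genes with at least 5 FPKM and 100 counts in each library, genes with 0 counts but high FPKM, and members of 57 gene lists. The lists held 1102 distinct genes, of which 1009 matched 1 row of the tables, and 330 names that stand for more than 1 row were not used in lists. Some members that the rule names are not reported here. Members and lists were chosen with earlier results of these data known, and some orders within a library were chosen after values were seen. Protein sequences had been planned, and promoters are printed in their place because no protein table was used here. Promoters came from RefSeq build GRCr8 and were matched by symbol.

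Alternatives were other thresholds, pseudocounts, scalings and filters, and leaving out each library.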

Additional observations from a re-analysis of the deposited data

How the results depend on the processing

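With each library left out in turn, the common biological coefficient of variation was 0.123 to 0.249, against 0.183, and the number of genes over a 2-fold range was 393 to 1973, against 2209. The 2-fold number was 1016 on the log2(FPKM + 1) scale, 3437 with no filter, 564 at a mean FPKM over 5 and 1401 on TMM-scaled CPM. At a threshold of 5 FPKM 8350 genes were expressed, against 13175. The 21 cell type lists held 12.1% of the summed FPKM on average, a mean that lacks Mbp in replicate 3 only (13.5%, 12.5% and 10.4%), 9.596% without the highest gene of each list, 9.84% with Mbp left out (chosen after seeing the data) and 15.8% of the counts. With the trend with length removed, also chosen after seeing the data, the median log2 ratio of replicate 3 over 1 went from 0.05 to -0.049 for the respiratory chain, and that of replicate 2 over 1 from -0.54 to 0.068 for calcium channels. Of the other comparisons of a value with an alternative, 30 for main results and 122 for single lists or genes moved by less than their spread, or for counts by less than 1.5 times, and 37 single lists or genes moved further without changing sign. The 122 include large drops with the trend with length removed. The ratio of replicate 2 over 1 went from 0.37 to 0.065 for the respiratory chain and from -0.49 to -0.098 for potassium channels. For the myelin share of the summed FPKM, 4.40% on average, the spread of 2.09 holds the missing Mbp value of replicate 3. No paired analysis was possible because the 3 libraries form 1 group with no group beside it. Libraries differed in depth by a factor under 2, genes with few counts are limited by it, and 3 pools cannot separate animals, surgery or batch.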
